A study of Mus musculus with 4 samples.

Results

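Neurons that carried transcripts of both Calb1 and Zfhx3 were picked out of single-cell RNA sequencing (10x Genomics droplets) of the medial ganglionic eminence (MGE), a germinal zone of the ventral embryonic forebrain, at e14.5. A barcode counted as a Calb1+ Zfhx3+ neuron when it held at least 3000 unique molecular identifiers (UMIs, a count of captured transcripts), at most 10% mitochondrial UMIs, at least 2 UMIs of Calb1, at least 2 of Zfhx3, at most 1 of Adarb2, at most 2 of Sst, and at least 3 of Stmn2, Gap43 and Mapt together, which mark neurons. This left 201 cells out of 11760 neurons and 19032 cells within the same limits on UMIs and mitochondrial share. The libraries labelled St18 null held 73 of the cells in replicate 1 and 53 in replicate 2, and the libraries labelled WT held 40 in replicate 1 and 35 in replicate 2. Values of the 4 libraries are given in this order throughout.

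Calb1 encodes calbindin, a protein that buffers calcium, and Zfhx3 encodes a large transcription factor with zinc fingers and homeodomains. The MGE makes GABAergic neurons that either migrate to the cortex as interneurons or settle in the pallidum and basal forebrain as projection neurons. Its progenitors express Nkx2-1 and its neurons Lhx6, while the lateral eminence (LGE) beside it makes striatal projection neurons with Meis2, Isl1 and Ebf1, and the caudal eminence (CGE) is known for Nr2f2.

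The 2 St18 null libraries came from St18(-/-) embryos, in which a floxed stretch of St18 had been deleted in the whole animal through a germline Cre, and the 2 WT libraries from wild-type embryos of the same heterozygous crosses. All were e14.5 embryos on a C57/BL6 ICR mix, and the labels name no other agent or allele. Embryos of 1 genotype were pooled into each library. How many embryos a pool held, and of which sex, was not stated, so the p-values below take pools, not embryos, as replicates.

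The transcript of St18 itself, a zinc finger transcription factor, was at 4.50, 13.4, 22.04 and 25.8 CPM in the Calb1+ Zfhx3+ neurons and at 18.3, 55.95, 33.1 and 44.3 in the other neurons, where CPM is a gene's UMIs per 1e6 UMIs of that class in that library. Among the other neurons the library labelled St18 null replicate 2 was thus the highest of the 4. Null replicate 1 lay below both WT libraries there and null replicate 2 above both. Per the study's methods the deletion shifts the reading frame and brings an early stop codon, and decay of the mRNA is named as likely. Counts per gene do not separate the deleted exons, and whether the labels are right was not tested. Xist, the RNA of the inactive X chromosome, had 1175 UMIs in the Calb1+ Zfhx3+ neurons of the libraries labelled null and none in those labelled WT. The number of genes that passed by genotype is therefore given also for cells without Xist. The Calb1+ Zfhx3+ neurons held 665979, 669522, 272209 and 232404 UMIs in all, with a median of 7178, 10630, 6460 and 5970 per cell against 6839, 9274, 6084 and 6041 in the other neurons. Between any pair of libraries 4 to 11 cell barcodes were shared, none of them between Calb1+ Zfhx3+ neurons. A doublet caller marked at most 3 cells per library by its own threshold and had thus not worked. The cells with the highest doublet scores, 5, 3, 3 and 3 of them Calb1+ Zfhx3+ neurons, were kept, and the counts of genes were recomputed without them.

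The cells were chosen by their UMIs of these genes, whose values are given as a description. Calb1 had a median of 3, 4, 3 and 3 UMIs per cell with a maximum of 19, and Zfhx3 a median of 5, 5, 4 and 4 with a maximum of 79, so many cells lay near the threshold. Calb1 (chromosome 4, 15881264 to 15908064, plus strand, GRCm38) stood at 453, 481, 727 and 676 CPM in the class, and Zfhx3 (chromosome 8, 107942644 to 108961630, plus strand) at 796, 727, 764 and 757. Of the 201 cells, 90 had exactly 2 UMIs of Calb1 or Zfhx3 and 111 had more than 2 of both. Just outside the rule lay 229 neurons with 1 UMI of one gene and 2 or more of the other, and 99 neurons with 1 UMI of each.

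Peg10 and Tmem130 had been named as markers of these cells with earlier results of the data known, so their levels are described and not tested against the other neurons. Peg10 (chromosome 6, 4747306 to 4760517, plus strand), a paternally expressed gene derived from a retrotransposon, was at 359, 512, 467 and 456 CPM in the class and at 76.1, 103, 62.2 and 66.2 in the other neurons, a log2 difference of 2.48 (SE 0.10). All 4 values of the class lay above all 4 of the other neurons, by 3 times or more. Tmem130 (chromosome 5, 144735915 to 144761818, minus strand), which encodes a membrane protein, was at 81.1, 106, 25.7 and 86.1 CPM against 22.4, 25.3, 21.7 and 27.9 (log2 difference 1.72, SE 0.16). Here WT replicate 1 of the class lay within the range of the other neurons, so Tmem130 marked the class in 3 of the 4 libraries.

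The 2 markers rested on different shares of the cells. With each cell thinned to 3000 UMIs, Peg10 was detected in 52.2% of the Calb1+ Zfhx3+ neurons, 13.5% of the other neurons and 7.14% of 70 microglia, which should lack it and show the background of free RNA. Tmem130 was detected in 24.4%, 6.70% and 2.86% of the same cells. With all UMIs, 63 of the 201 cells had both transcripts, 81 Peg10 alone, 13 Tmem130 alone and 44 neither. Peg10 fell off just outside the threshold. In neurons with 1 UMI of one gene and 2 or more of the other it stood at 233, 139, 144 and 292 CPM, and in neurons with 1 UMI of each at 13.2, 30.8, 57.7 and 48.4.

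Among neighbouring classes Peg10 was next highest in the 53 neurons that met the rule except for the limit on Sst or Adarb2, at 359 ± 189 CPM (mean ± SD, n = 4 libraries) against 448 ± 64.5 in the class. The 1852 Zfhx3 single-positive neurons, which had 2 or more Zfhx3 UMIs and no Calb1 UMI, followed at 176 ± 10.5. Neurons with 2 or more Adarb2 UMIs were at 112 ± 44.1, the 327 Calb1 single-positive neurons (2 or more Calb1 UMIs and no Zfhx3 UMI) at 66.5 ± 24.2, and neurons with 3 or more Sst UMIs at 37.3 ± 20.3. Each of these 6 classes overlapped with its neighbour in this order over the 4 libraries. Zfhx3 single-positive neurons lay below the Calb1+ Zfhx3+ neurons in every library.

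**Figure D1:**
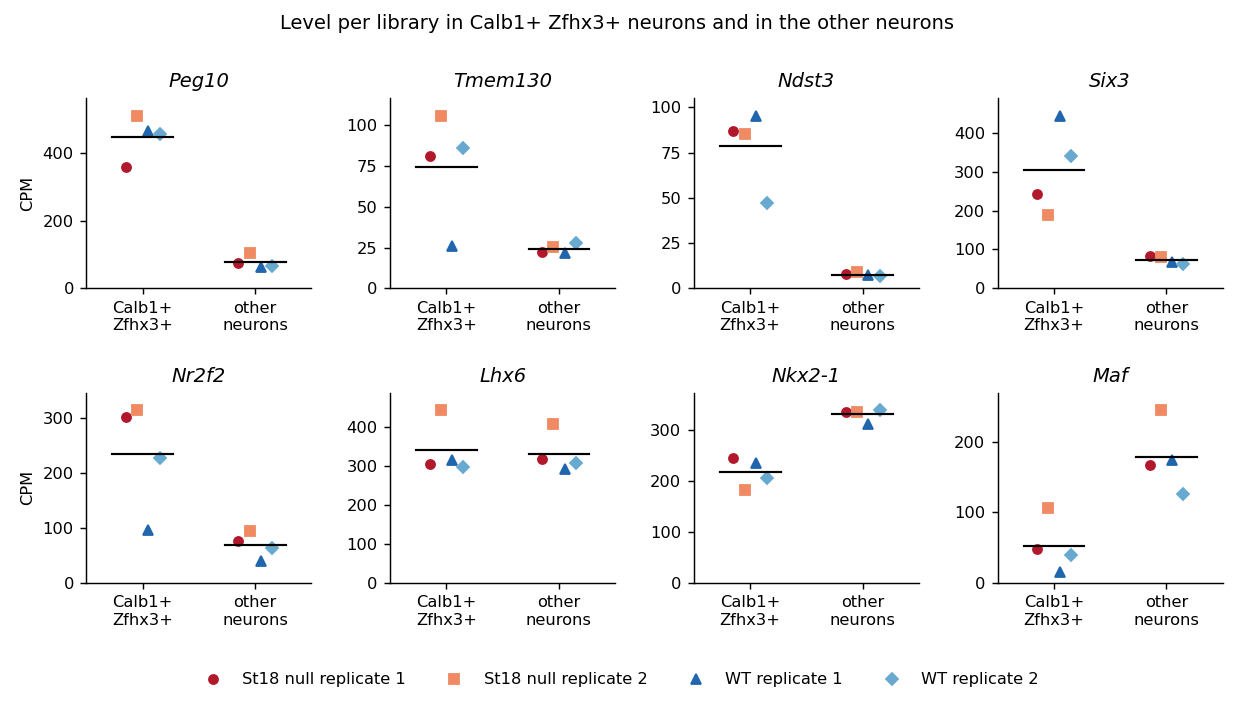
Level of 8 genes in CPM (vertical axis, linear from 0) in the Calb1+ Zfhx3+ neurons and in the other neurons, with 1 point for each library and a bar at the mean of the 4. Peg10, Ndst3, Six3 and Nr2f2 lay higher in the class in all 4 libraries (for Nr2f2 with WT replicate 1 close to the other neurons), Tmem130 in 3 clearly, Lhx6 overlapped, and Nkx2-1 and Maf lay lower.

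Against the 11559 other neurons of the same libraries, the class was higher in 16 of 27 imprinted genes besides Peg10, in 4 of 9 genes of the CGE, in 11 of 34 transmitter receptors and in 10 of 34 ion channels. It was lower in 11 of 13 MGE lineage genes, in 9 of 15 genes of cortical interneuron precursors and in 6 of 10 progenitor genes. The lists share some genes, so their counts are not independent. Sox6 and Satb1 count in the MGE and cortical interneuron lists, for example. Lhx8 and Nkx2-1 count in the MGE list and in that of the pallidum and basal forebrain below. UMIs were summed per library and class and compared by edgeR's quasi-likelihood test with library as a block and Benjamini-Hochberg adjustment. Of 12616 genes tested, 686 (5.44%) were higher and 781 (6.19%) lower in the class at an adjusted p under 0.05. edgeR estimated 1 spread trend for all genes here and in the interaction below. This makes the p-values and SEs of genes with a large spread of their own too small. limma-voom on the same sums called 480 higher and 253 lower, and for the lists below its counts are given beside those of edgeR where they differ.

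Among genes with at least 50 CPM in the higher class, Ndst3 had the largest increase. This enzyme, which sulfates heparan sulfate chains (chromosome 3, 123526166 to 123690853, minus strand), was at 87.1, 85.1, 95.5 and 47.3 CPM in the class and at 7.61, 8.71, 7.12 and 6.82 in the other neurons (log2 fold change 3.37, SE 0.21). It was detected in 25.4% of the thinned Calb1+ Zfhx3+ neurons, 2.20% of the other neurons and none of the 70 microglia. The sulfotransferase Chst2 also rose, from 18.4 ± 2.34 to 64.3 ± 18.5 CPM. No library of the class overlapped with the other neurons in either gene.

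Several of the genes that rose most encode nuclear factors. The homeobox gene Six3 (chromosome 17, 85613608 to 85629302, plus strand), which acts in striatal neurons of the LGE, was at 243, 188, 445 and 339.9 CPM against 82.7, 80.7, 67.2 and 62.6 (log2 fold change 1.88, SE 0.11). Its antisense partner Six3os1 overlaps it and rose too (1.94, SE 0.22), but the strand of counting was not stated, so reads of both cannot be told apart. With the rule applied to thinned cells Six3os1 was at −0.015 and did not pass. Zfhx4, a relative of the selected Zfhx3, was at 183, 146, 235 and 172 CPM against 52.04, 55.1, 38.3 and 39.97 (1.88, SE 0.12). Tle4, a corepressor of the Groucho family, was at 269, 305, 419 and 314 against 76.97, 99.7, 87.5 and 95.03 (1.81, SE 0.10). Nr2f2, the orphan nuclear receptor COUP-TFII of the CGE, was at 302, 315, 95.5 and 228 against 76.5, 94.7, 39.7 and 63.3 (1.77, SE 0.11), and WT replicate 1 was the lowest of the 4 in both classes.

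At the cell surface, the AMPA receptor subunit Gria2 was at 718, 790.1, 705 and 749 CPM against 190.1, 257, 169.7 and 187 (log2 fold change 1.85, SE 0.10), with little spread between libraries. The semaphorin receptor Nrp1 rose from 51.9 ± 4.46 to 189 ± 51.3 CPM and the netrin receptor Unc5d from 13.5 ± 1.82 to 57.5 ± 12.8. Crim1, a membrane protein that binds BMPs and shares reads of unknown strand with the overlapping Fez2, rose from 9.39 ± 1.30 to 54.4 ± 11.8. Of the 15 genes with the largest increase, the remaining ones were the marker Peg10, the imprinted genes Nap1l5 (251 ± 46.6 against 59.5 ± 10.1 CPM, inside the Herc3 gene, with 41.9%, 37.6%, 43.6% and 25.7% of its UMIs in the class held by 1 cell of each library) and Zdbf2 (261 ± 30.3 against 77.4 ± 12.6), and Samd5. Their log2 fold changes ran from 1.72 for Zdbf2 to 3.37 for Ndst3. Naming required a higher level in 4 of 4 libraries, and leaving out Peg10, all 14 were called by limma-voom as well, with a highest adjusted p of 0.00242.

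On the other side, Nxph1, a secreted ligand of neurexins found in MGE interneurons, was at 10.5, 16.4, 11.02 and 17.2 CPM against 60.1, 78.2, 59.6 and 61.5 (log2 fold change −2.30, SE 0.24). Maf, a transcription factor of cortical interneurons, was at 48.05, 106, 14.7 and 38.7 against 167, 245, 174 and 125 (−1.66, SE 0.14), and the factor Nfib at 93.1, 223, 91.8 and 116 against 385, 561, 290.4 and 317 (−1.62, SE 0.12). The 4 values of the class lay below the 4 of the other neurons for all 3 genes. The ETS factor Etv1 fell from 92.7 ± 19.04 to 24.4 ± 12.9 CPM, the zinc finger factors Zic1 from 85.8 ± 24.02 to 29.6 ± 16.4 and Zfp536 from 171 ± 39.2 to 64.4 ± 23.4, and S100a10 from 92.6 ± 34.5 to 28.3 ± 9.98.

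The remaining genes with the largest decrease had other roles. Hells, a chromatin remodeller, fell from 66.05 ± 4.19 to 22.8 ± 6.84 CPM, Uhrf1, which maintains DNA methylation, from 66.5 ± 12.8 to 19.7 ± 11.8, Cdca7 from 239 ± 10.7 to 91.8 ± 20.7, and the securin gene Pttg1 from 52.01 ± 14.8 to 18.3 ± 11.8. The tubulin gene Tuba1c fell from 52.3 ± 4.25 to 14.2 ± 10.9 CPM. The helicase subunit Mcm3 (27.3 ± 13.1 against 62.1 ± 12.8 CPM) and the globin genes Hbb-bs and Hbb-bt complete the 15 genes with the largest decrease. Naming required the same direction in 4 libraries. Without WT replicate 2 Hbb-bt was at −1.41 and without null replicate 2 Zic1 at −2.14. Hbb-bs was at 30.03, 13.4, 40.4 and 25.8 CPM in the class and at 160.2, 35.1, 84.4 and 669.9 in the other neurons, where the summed level of 8 erythroid genes ranged from 80.6 to 1880 CPM between libraries. Log2 fold changes of the 15 ran from −1.38 for Cdca7 to −2.74 for Hbb-bs. limma-voom called 13 of these 15 and lost Hbb-bt and Mcm3.

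Of 13 MGE lineage genes tested, 11 were lower and none was higher (median log2 fold change −0.75, against −0.03 over all genes tested; 10 lower by limma-voom). Lhx8, a factor of cholinergic and pallidal neurons, was at 70.6, 98.6, 91.8 and 34.4 CPM against 187, 155, 208 and 249.9 (−1.28, SE 0.13). Nkx2-1 was at 245, 182, 235 and 207 against 337, 336, 312 and 339.6 (−0.65, SE 0.11), without overlap. The homeobox genes Dlx2, Dlx5 and Dlx6 and the factors Sp9, Tcf12 and Satb1 fell by 0.55 to 0.93 on the log2 scale, and Sox6 fell by 1.09 in edgeR but was not called by limma-voom. Lhx6 did not pass the test, at 306, 445, 316 and 297 CPM against 319, 408, 294 and 308, and neither did Dlx1. With cells thinned, an Lhx6 UMI was found in 58.7% of the class, 55.0% of the other neurons and 8.57% of microglia, so the class held Lhx6 at about the level of the other neurons with less Nkx2-1.

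Of 15 genes of cortical interneuron precursors, 9 were lower and 1 higher (median −0.86; 7 lower and none higher by limma-voom). Besides Maf, the lower ones included the factor Zeb2, at 263, 318, 217 and 202 CPM against 586, 743, 468 and 396 (−1.16, SE 0.11), and the chemokine receptor Ackr3, at 40.5, 37.3, 29.4 and 8.61 against 65.2, 80.7, 76.7 and 59.4 (−1.12, SE 0.18). The cyclin Ccnd2 was at 509, 326, 261 and 98.97 against 771, 855, 598 and 571 (−1.25, SE 0.11), and the ephrin receptor Epha4 fell by 0.49 on the log2 scale. Erbb4, the neuregulin receptor, fell by 0.79 in edgeR and was not called by limma-voom. Npy was the member that rose in edgeR, and limma-voom did not call it. Cxcr4, Cux2, Mef2c and Apc were among those that did not pass.

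The CGE list moved the other way, with 4 of 9 genes higher and none lower by either tool (median 0.98). Nr2f1, a relative of Nr2f2, was at 545, 551, 448 and 516 CPM against 192, 221, 142 and 133 (1.55, SE 0.10). Npas1, a helix-loop-helix factor of CGE interneurons that also marks pallidal neurons (chromosome 7, 16455721 to 16477728, minus strand), was low, at 19.5, 29.9, 11.02 and 8.61 against 2.55, 3.18, 3.05 and 2.97 CPM (2.73, SE 0.39). The cannabinoid receptor Cnr1 was at 58.6, 67.2, 47.8 and 73.1 against 28.7, 33.9, 28.1 and 33.2 (0.98, SE 0.17). Prox1, Sp8, Htr3a, Calb2 and Scgn did not pass, and Adarb2 was limited by the rule itself. The summed level of the list ran from 639 to 1059 CPM in the class and from 279.96 to 469 in the other neurons. In the Calb1 single-positive neurons it ran from 354 to 929 CPM, overlapping with the class.

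Of 14 striatal genes of the LGE, 6 were higher and 3 lower (median 0.40; 3 and 2 by limma-voom), and part of this group depended on how the cells were chosen. Beside Six3, the POU factor Pou3f1 was at 471, 288, 613 and 309.8 CPM against 174, 169.9, 206 and 162 (1.17, SE 0.10) and the forkhead factor Foxp1 at 114, 223, 118 and 133 against 88.8, 106, 75.7 and 61.9 (0.78, SE 0.12). The zinc finger factor Bcl11b fell by 0.75 on the log2 scale. Meis2, at 496, 397, 738 and 224 against 377, 421, 327 and 209.7 CPM, passed in edgeR (0.39, SE 0.10) and not in limma-voom, and when the rule was applied to cells thinned to 3000 UMIs it was lower in the class (−0.76, adjusted p = 0.0006 by edgeR). Without WT replicate 1 it was at 0.13 and Isl1 at 0.24, and without WT replicate 2 Foxp2 was at 0.37, all without passing. Isl1 (0.41) and Foxp2 (0.70) also passed in edgeR alone and were at −0.19 and −0.91 with thinned cells, without passing. Without the highest doublet scores Foxp2 was at 0.0041 and Isl1 at 0.37, which did not pass either. Among cells with an Lhx6 UMI all 3 passed in edgeR, with Isl1 at 1.32, Foxp2 at 1.32 and Meis2 at 0.67. Ebf1 (chromosome 11, 44617317 to 45008091, plus strand), an early B-cell factor of striatal neurons, was lower than in the other neurons in edgeR alone (−0.63, SE 0.12, from −0.95 without null replicate 1 to −0.41 without WT replicate 1). Among cells with an Lhx6 UMI it was higher (1.08, adjusted p = 3.0e-16 by edgeR), where no other tool was run. Ebf1 UMIs were found in 23 cells of the class, with 32.7%, 70.7%, 77.3% and 72.7% of them in 1 cell of each library. For a gene with such a spread the edgeR p-value is too small. With at least 3 UMIs of Calb1 and of Zfhx3 required, Ebf1 was at −0.13 and did not pass, and without the highest doublet scores it was at −1.01.

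Of 15 genes of the pallidum and basal forebrain tested, 5 were higher and 6 lower (median 0.25; 3 and 5 by limma-voom). The zinc finger factor Tshz2 was at 249, 194, 364 and 202 CPM against 83.5, 65.5, 79.1 and 81.7 (1.65, SE 0.11), and together with Tle4 and Npas1 it stood on the higher side. Lhx8, Zic1, Etv1 and Nkx2-1 stood on the lower side, Gbx1 in edgeR alone, and Zic2 had no UMI in the class. Gbx2, Nr4a2, Zic4 and Kcnmb4 did not pass.

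Markers of other cell types were checked over whole lists. The summed level of 10 progenitor genes was 1416 to 2231 CPM in the class and 2337 to 3213 in the other neurons, and 6 of the 10 were lower by either tool, among them Vim (−1.20), Hes5 (−1.23), Mki67 (−0.82) and Top2a (−0.80). The 8 microglial genes summed to 0 to 11.02 CPM with C1qa and C1qb at 0, the 8 endothelial and mural genes to 0 to 10.5, and the 8 erythroid genes to 56.8 to 94.7 against 80.6 to 1880 in the other neurons. Oligodendrocyte precursor genes summed to 18.4 to 45.05 CPM and genes of pallial excitatory neurons to 0 to 38.7, both within or below the range of the other neurons. The 16 hypothalamic and diencephalic genes summed to 135, 11.9, 22.04 and 68.8 CPM in the class against 16.7 to 36.02 in the other neurons, so they stood above that range in null replicate 1 and WT replicate 2. Of 6 of them tested, Hmx2 and Hmx3 were higher, with UMIs in 7 and 8 cells. The part of these other transcripts in the comparison was not tested.

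**Figure D2:**
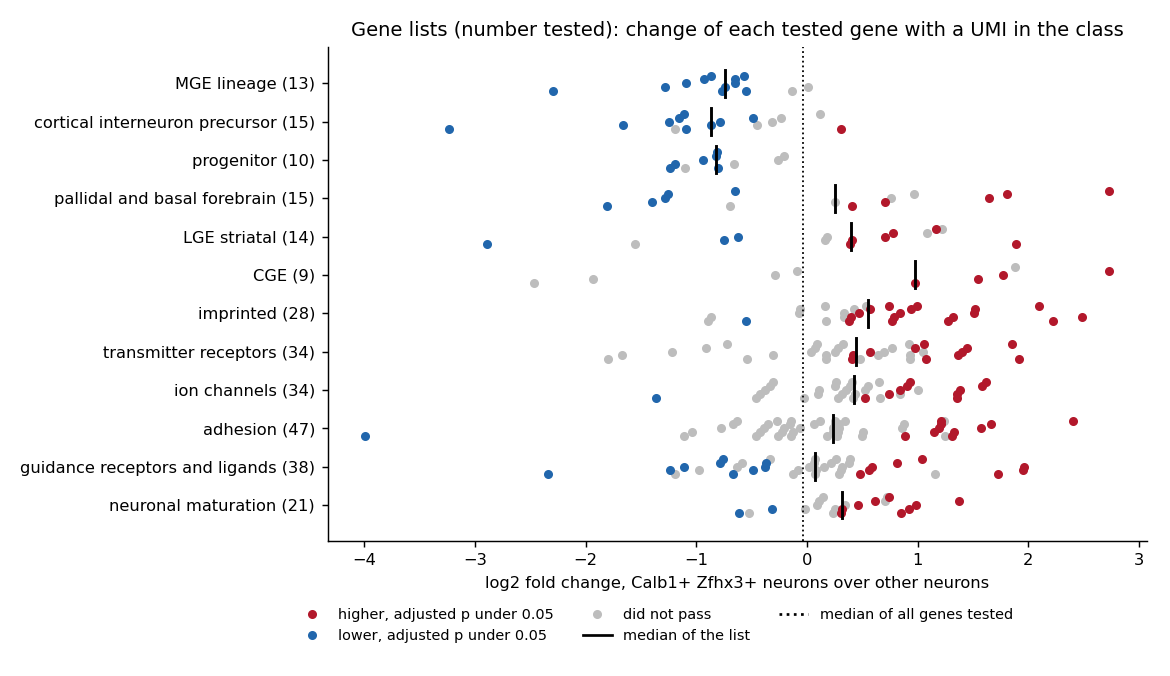
Log2 fold change of the Calb1+ Zfhx3+ neurons over the other neurons (horizontal axis) for each tested gene of 12 lists, leaving out genes without a UMI in the class; points are coloured by the edgeR call, the short bar is the median of the list and the dotted line the median of all genes tested. MGE lineage, cortical interneuron and progenitor genes lie mostly left of the line, and CGE and imprinted genes mostly right of it.

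Imprinted genes, which are expressed from 1 parental allele, were the list with the highest share of higher genes. Of 27 tested besides Peg10, 16 rose and 1 fell (median 0.54; 13 and none by limma-voom), against 5.44% of all genes higher. Peg3, a zinc finger gene expressed from the paternal allele, was at 877, 692, 900.0 and 813 CPM against 284, 306, 258 and 265 (1.51, SE 0.10), and its neighbour Usp29 at 213, 239, 154 and 207 against 86.1, 94.6, 72.5 and 78.5 (1.28, SE 0.11). Mest was at 333, 397, 364 and 439 against 149.8, 148, 142 and 155 (1.32, SE 0.10), and Magel2 at 33.03, 35.8, 47.8 and 43.03 against 14.2, 11.3, 13.2 and 14.7 (1.52, SE 0.24). No value of the class overlapped with the other neurons in any of these 4 genes.

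The strongly expressed Nnat rose from 3113 ± 311 to 5738 ± 715 CPM, the noncoding RNA Meg3 from 1208 ± 238 to 2439 ± 787 and Ndn, of the same family as Magel2, from 228 ± 31.8 to 392 ± 142, although Ndn in WT replicate 1 was at 184 CPM in the class and 187 in the other neurons. Sgce, which lies beside Peg10, was at 94.6, 68.7, 77.1 and 73.1 against 49.8, 52.8, 35.8 and 37.8 (0.77, SE 0.15). This was a smaller change than that of Peg10, which had been named as a marker beforehand. Grb10, a growth factor receptor adaptor, was lower in edgeR alone (−0.55). Igf2, H19, Cdkn1c, Dlk1 and Gnas were among the 10 that did not pass. Parental alleles were not measured.

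Genes of neuronal signalling that passed the test were mostly higher in the class. Of 34 transmitter receptor genes, 11 rose and none fell (median 0.45; 7 and none by limma-voom). The GABA-A receptor subunit Gabra2 was at 70.6, 55.3, 55.1 and 86.1 CPM against 24.2, 26.4, 19.2 and 21.6 (1.45, SE 0.18) and lay above the other neurons in every library. The NMDA receptor subunit Grin2b rose from 36.4 ± 4.83 to 80.4 ± 31.9 CPM. Of 34 ion channel genes, 10 rose and 1 fell (median 0.42; 7 and none by limma-voom), among them the calcium channel subunit Cacna2d3, from 17.5 ± 0.815 to 55.1 ± 5.58, and the sodium channel subunit Scn3b, from 20.4 ± 1.46 to 54.5 ± 22.6.

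Of 47 adhesion genes, 10 rose and 1 fell (median 0.23; 9 and 1 by limma-voom). Negr1 was at 188, 261, 184 and 293 CPM against 65.9, 88.9, 64.5 and 80.2 (1.57, SE 0.11) and Cadm1 at 527, 372, 422 and 538 against 172, 198, 179.9 and 165 (1.32, SE 0.10), both cell adhesion molecules of the immunoglobulin superfamily. The protocadherins Pcdh7 and Pcdh17 rose by 1.67 and 1.21 on the log2 scale, and the synaptic organizer Lrrtm3 rose from 5.32 ± 0.885 to 31.3 ± 17.9 CPM. Guidance genes split, with 8 of 38 higher and 9 lower (median 0.07; 6 and 4 by limma-voom). Besides Nrp1 and Unc5d, Nrp2 (0.82), Dcc (0.56) and the semaphorin receptor Plxnc1 (1.04) rose, while the ephrin receptor Epha5 fell by 0.67. The Slit receptor Robo2 was lower in edgeR alone (−0.76).

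Of 21 genes of neuronal maturation, 9 rose and 2 fell (median 0.31; 7 and none by limma-voom). The synaptic vesicle protein Syt1 was at 312, 382, 342 and 452 CPM against 124, 145, 142 and 148 (1.37, SE 0.10), Stmn4 rose by 0.74 on the log2 scale, and the neurofilament Nefm was lower in edgeR alone (−0.62). The neuron limit of the rule uses Stmn2, Gap43 and Mapt in both classes. Of 6 genes of GABA synthesis and transport, Gad2 rose, at 604, 636, 742 and 435 CPM against 383, 421, 451 and 389 (0.53, SE 0.10), and Gad1, Slc32a1, Slc38a1 and Abat were among those that did not pass.

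The families of the 2 selected genes were described too. Of 21 other calcium-binding genes with EF hands, none was higher in edgeR, against 5.44% of all genes, and 3 were lower, S100a10 and Efhd2 among them, while Calb2, Scgn, Necab1 and Ncald did not pass. limma-voom called 1 higher and 2 lower of them. Of the zinc finger homeobox and Myt families, Zfhx2 (0.80, SE 0.12) rose with Zfhx4 by both tools, and Zeb2 and St18 fell, St18 by 1.504. That value rested on 3, 9, 6 and 6 St18 UMIs in the class. By the levels given above, St18 fell further in the null libraries than in WT. On these few UMIs the interaction of genotype and class, described below, did not pass for St18. The St18 relatives Myt1 and Myt1l were higher in edgeR alone (0.37 and 0.44). Of the genes above that passed in edgeR alone, Gbx1 (−1.40), Grb10 (−0.46), Npy (0.26), Myt1 (0.39) and Myt1l (0.33) no longer passed without null replicate 2, and Nefm did not without null replicate 1 (−0.59) or WT replicate 2 (−0.4997), while without null replicate 2 it passed at −1.003. Gbx1 (−0.89) and Myt1 (0.36) also lost the call without null replicate 1, and Npy (0.25) and Myt1 (0.32) without WT replicate 1. Erbb4 ran from −1.51 without null replicate 2 to −0.52 without null replicate 1, and Robo2 was at −1.20 without null replicate 2.

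The class was then set against neurons that had only 1 of the selected transcripts, with the same limits on Sst and Adarb2. These comparisons use the same Calb1+ Zfhx3+ neurons as the one above, so the values stand side by side and are not independent. Against Calb1 single-positive neurons, 337 of 7029 genes tested (4.79%) were higher and 220 (3.13%) lower. Against Zfhx3 single-positive neurons, 259 of 9828 (2.64%) were higher and 339 (3.45%) lower. limma-voom called 354 and 212 in the first comparison and 342 and 277 in the second.

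Against Calb1 single-positive neurons, the class was higher in striatal genes of the LGE and lower in genes of MGE interneurons. Ebf1 was at 234, 224, 80.8 and 47.3 CPM in the class and at 7.95, 3.40, 9.94 and 2.33 in Calb1 single-positive neurons (log2 fold change 4.797, SE 0.27), with Ebf1 UMIs in 23 of the 201 cells and 32.7%, 70.7%, 77.3% and 72.7% of them in 1 cell of each library. Isl1 was at 99.1, 106, 191 and 98.97 against 24.99, 10.2, 5.97 and 11.6 (3.01, SE 0.26), Meis2 at 496, 397, 738 and 224 against 103, 104, 149 and 60.5 (2.13, SE 0.11), and Six3 at 243, 188, 445 and 339.9 against 20.4, 26.1, 73.6 and 27.9 (3.06, SE 0.16). All 4 values of the class lay above those of the Calb1 single-positive neurons for each of these genes. In all, 9 of 10 LGE genes tested were higher and 1 lower, with a median of 2.51 against −0.005 over all genes, and limma-voom gave the same counts.

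Six3os1 (3.64), Zfhx4 (3.40), Crim1 (2.93), Foxp2 (2.86), Pou3f1 (2.37), Zfp503 (2.65) and Foxp1 (1.63) rose as well. Islr2, a membrane protein of growing axons, was at 231, 276, 228 and 211 CPM against 39.7, 27.2, 33.8 and 34.9 (2.83, SE 0.16), with close values within each class. Of 19 imprinted genes besides Peg10, 11 rose and none fell (12 and none by limma-voom), and of 24 adhesion genes 14 rose and 2 fell (15 and 2 by limma-voom). Of 4 CGE genes tested, Cnr1 and Nr2f1 rose, Prox1 fell and Nr2f2 did not pass, with the same counts by limma-voom. The log2 difference of the markers was 2.67 for Peg10 and 1.84 for Tmem130.

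Lower than in Calb1 single-positive neurons were 12 of 13 MGE lineage genes (median −0.67) and 10 of 13 cortical interneuron genes (median −0.86), with the same counts by limma-voom. Nxph1 was at 10.5, 16.4, 11.02 and 17.2 CPM against 74.96, 163, 61.6 and 97.8 (−2.95, SE 0.24), and the E-protein gene Tcf4 at 480.5, 1031, 415 and 473 against 2144, 2564, 1356 and 1553 (−1.72, SE 0.11). Sox6, the partner of Lhx6 in interneuron development, was at 102, 218, 36.7 and 86.1 against 341, 435, 253 and 286 (−1.51, SE 0.14). Nfib (−2.07), Maf (−1.996), Zfp536 (−1.86), Etv1 (−1.80), Erbb4 (−1.64), Satb1 (−1.32), Zeb2 (−1.33) and the protease gene Adamts5 (−1.96) fell too. Nkx2-1 was lower by less (−0.46, SE 0.11), did not pass without null replicate 2 (−0.39, adjusted p = 0.129 by edgeR) and was at 0.19 with thinned cells. Lhx6, at 382, 519.9, 398 and 391 CPM in the Calb1 single-positive neurons, was also lower (−0.31, SE 0.09), and did not pass when any 1 library was left out (−0.37 to −0.28, adjusted p = 0.0602 to 0.163 by edgeR). St18 was at 36.3, 73.6, 31.8 and 55.9 CPM there and fell by 1.93 on the log2 scale. By these levels it again fell further in the null libraries than in WT, a difference that was not tested here.

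Against Zfhx3 single-positive neurons the direction of the LGE genes turned. Ebf1 was at 997, 1022, 1533 and 877 CPM in those neurons (log2 fold change of the class over them −2.67, SE 0.17). Isl1 was at 332, 294, 425 and 279.9 (−1.45, SE 0.12), Meis2 at 925, 1027, 1047 and 575 (−0.98, SE 0.10) and Zfp503 at 155, 205, 226 and 118 (−1.71, SE 0.15). Of 13 LGE genes tested, 8 were lower (7 by limma-voom) and Six3 alone was higher (0.56, SE 0.12), with a median of −0.93 against 0.0047 over all genes. The class means of Meis2, Isl1 and Ebf1 thus lay between those of the 2 single-positive classes, while Six3 was highest where both transcripts were present. So was Peg10, which had been named as a marker of the class beforehand.

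Of 13 genes of the MGE list, Lhx6 and Dlx1 were higher than in Zfhx3 single-positive neurons, Dlx6 was lower and 10 did not pass (median −0.006, the same counts by limma-voom). Lhx6 was at 306, 445, 316 and 297 CPM in the class against 159.6, 203, 114 and 159.6 (1.12, SE 0.10), without overlap. Npy, the neuropeptide of some MGE interneurons, was at 395, 412, 609.8 and 374 against 121, 134, 125 and 114 (1.83, SE 0.10), and relative to Calb1 single-positive neurons it was lower (−0.63, SE 0.11). Nr2f2 was at 302, 315, 95.5 and 228 against 92.8, 98.98, 59.6 and 116 (1.45, SE 0.13), with WT replicate 1 within the range of the Zfhx3 single-positive neurons, and Npas1 was also higher (2.67, SE 0.41).

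Ndst3 was higher than in Zfhx3 single-positive neurons too (2.95, SE 0.20, 11.5, 11.02, 9.23 and 10.02 CPM there). The receptor phosphatase Ptprd was at 270.3, 332, 198 and 249.6 CPM against 81.1, 75.7, 70.3 and 95.02 (1.78, SE 0.12), and Rprm, a cell cycle inhibitor and marker of some projection neurons, at 429, 375, 327 and 331 against 139, 114, 88.03 and 96.1 (1.76, SE 0.10). Crim1 (1.74), Chst2 (1.73), Unc5d (1.71) and Nap1l5 (1.70) were higher here as well. The log2 difference was 1.35 for Peg10 and 0.93 for Tmem130 (0.61 without null replicate 2), and of 24 imprinted genes besides Peg10, 9 rose and 1, Dlk1, fell. Lower were the neurofilament genes Nefl, at 34.5, 8.96, 3.67 and 25.8 against 118, 65.2, 87.6 and 94.6 (−2.22, SE 0.22), and Nefm, at 43.5, 53.8, 22.04 and 12.9 against 179, 125, 142 and 105 (−1.84, SE 0.18). Pcp4 (−2.12), the retinoic acid binding protein Crabp1 (−2.42), Ppp2r2b (−1.997) and Sybu (−1.77) fell as well, and so did Apoe (−1.92), a gene that microglia also express. Crabp1 was at −1.55 without null replicate 1 and −5.36 without null replicate 2, and Apoe at −3.35 and −1.001, where it no longer passed (adjusted p = 0.0741 by edgeR). The 8 microglial genes summed to 46.9 to 195 CPM in the Zfhx3 single-positive neurons and 0 to 11.02 in the class, and all 4 of them tested (C1qa, C1qb, C1qc and Tyrobp) were lower by both tools. The part of microglial RNA in these values was not tested.

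**Figure D3:**
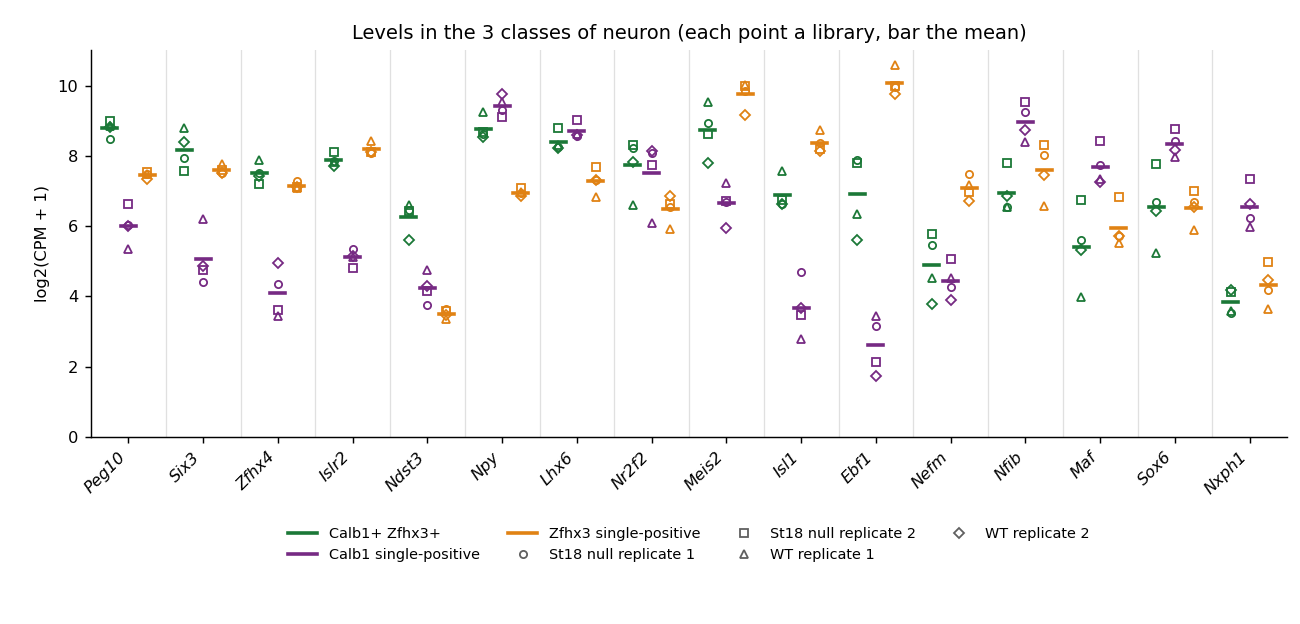
Level as log2(CPM + 1) (vertical axis) of 16 genes in Calb1+ Zfhx3+, Calb1 single-positive and Zfhx3 single-positive neurons, with 1 symbol for each library and a bar at the mean. Six3 and Peg10, the latter named as a marker beforehand, are highest in the Calb1+ Zfhx3+ neurons. Meis2, Isl1 and Ebf1 lie between the 2 single-positive classes, and Nfib, Maf, Sox6 and Nxph1 are highest in the Calb1 single-positive neurons.

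The 201 cells were not of a single kind. Lhx6 UMIs numbered 2 or more in 128 cells (45, 47, 18 and 18) and 0 in 44 cells (19, 3, 11 and 11), and null replicate 2 thus had only 3 cells without Lhx6, with 21824 UMIs in all. The cells without Lhx6 had a median of 8126, 6820, 6006 and 5746 UMIs against 6688, 11614, 7174 and 5798.5 in the Lhx6 cells. They were thus shallower in null replicate 2 and WT replicate 1, and slightly so in WT replicate 2, and the part of depth was not tested. Of 2536 genes tested between them, 10 (0.394%) passed, 7 of them higher in the cells with Lhx6 and 3 lower.

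The 3 genes that were higher without Lhx6 were Six3, Meis2 and Nr2f1. Six3 was at 455, 1420.5, 929.9 and 797 CPM in the cells without Lhx6 and at 172, 131, 209.6 and 73.5 in the cells with it (log2 fold change of Lhx6 cells over the others −2.44, SE 0.29, adjusted p = 5.1e-05 by edgeR). Meis2 was at 997, 3070.0, 1891 and 384 against 278, 313, 258 and 188 (−2.36, SE 0.26, adjusted p = 2.7e-05 by edgeR). Neither gene overlapped between the groups. Both kept their call in every alternative tried, while the remaining 8 genes lost it in at least 1. Nr2f1 was at 779, 1375, 449 and 811 against 411, 516, 335 and 384 (−0.96, SE 0.20).

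Higher with Lhx6 were Npy, at 563, 435, 559 and 474 CPM against 99.7, 0, 77.5 and 256 (2.14, SE 0.34), and Nkx2-1, at 320.4, 189.9, 265 and 245 against 93.5, 0, 108 and 128 (1.54, SE 0.31). A count of 0 in the 3 cells of null replicate 2 allows up to 137 CPM. Nfib was at 75.7, 231, 154 and 163 against 37.4, 0, 15.5 and 28.5 (2.13, SE 0.47), and Tcf4 at 605, 1057, 622 and 515 against 318, 412, 124 and 228 (1.34, SE 0.24). The RNA-binding protein gene Qk (1.28) and the histone genes Hist1h1b (1.86) and Hist1h4d (1.31) were higher as well. limma-voom called 9 of these 10 genes and lost Hist1h4d. The number of genes passing was 9 without null replicate 1, 13 without null replicate 2, 4 without WT replicate 1 and 3 without WT replicate 2, of which 5, 8, 2 and 3 were among these 10. The log2 fold changes kept their direction. That of Nfib ran from 1.88 to 3.14, Hist1h1b from 1.27 to 2.41, Npy from 1.96 to 2.78, Six3 from −2.92 to −2.09 and Nr2f1 from −1.08 to −0.83.

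Both groups carried the markers of the class. Peg10 was at 391, 522, 678 and 604 CPM with Lhx6 and 380.2, 412, 217 and 299 without, and Tmem130 at 58.03, 104, 41.9 and 57.2 and 125, 183, 15.5 and 157. Single cells with both kinds of transcript were common. Of the 201 cells, 77 had a UMI of Lhx6 and Meis2, 80 of Lhx6 alone, 28 of Meis2 alone and 16 of neither. For Lhx6 and Nr2f2 these numbers were 81, 76, 26 and 18, and for Lhx6 and Nkx2-1 they were 109, 48, 15 and 29. For Lhx6 and Maf they were 34, 123, 4 and 40, so Maf was found in few cells and most of those also had Lhx6. Such counts rise with depth, with free RNA and with doublets, which were kept in these counts, and are descriptions.

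**Figure D4:**
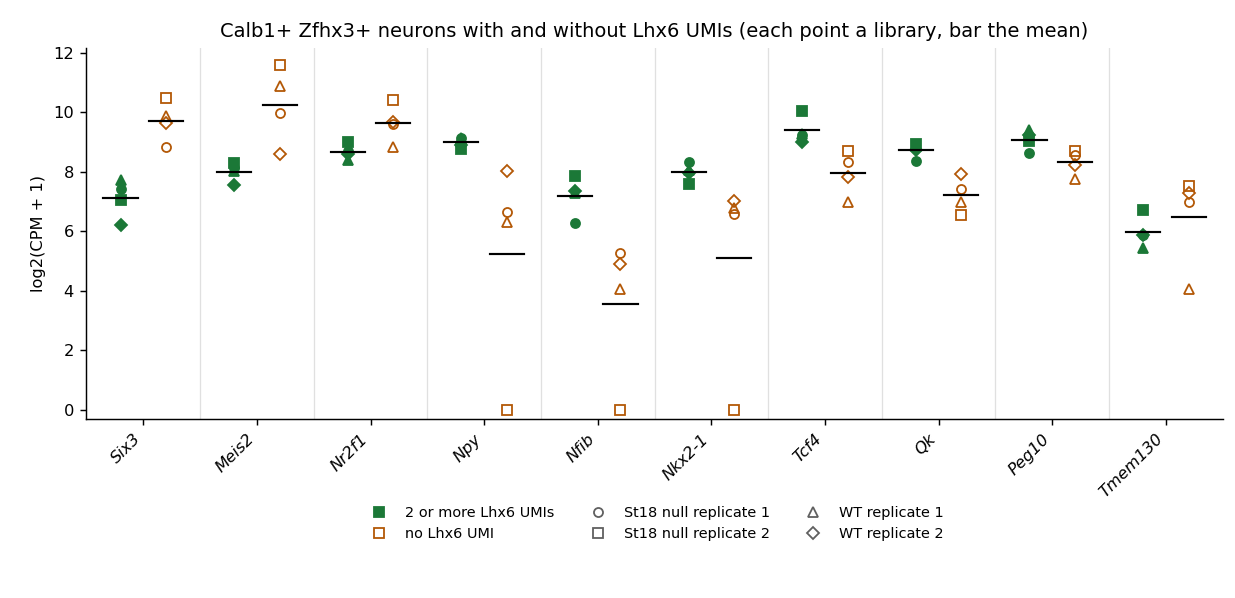
Level as log2(CPM + 1) (vertical axis) of 10 genes in Calb1+ Zfhx3+ neurons with 2 or more Lhx6 UMIs (filled) and with none (open), with 1 symbol for each library and a bar at the mean; points at 0 are the 3 cells of null replicate 2. Six3 and Meis2 separate the groups in opposite direction to Npy and Nkx2-1, and Peg10 and Tmem130 are found in both.

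Calb1+ Zfhx3+ neurons made up 1.83% of neurons in St18 null replicate 1 (exact 95% interval 1.44 to 2.30), 2.20% in null replicate 2 (1.65 to 2.87), 1.51% in WT replicate 1 (1.08 to 2.06) and 1.29% in WT replicate 2 (0.898 to 1.79). The intervals cover counting error only. Both null libraries lay above both WT libraries, with a ratio of means of 1.44, but 2 libraries against 2 cannot reach an exact permutation p below 0.333, which was the value obtained (two-sided). The null libraries were also the deeper ones. With cells thinned to 3000 UMIs before the rule was applied, 21, 16, 18 and 12 cells remained, or 0.840%, 1.30%, 1.04% and 0.618% of the thinned cells that still counted as neurons, and the genotypes overlapped (ratio 1.29, exact permutation p = 0.667, two-sided). In the other choices of cells tried (stricter and looser limits, cells with an Lhx6 UMI, cells without Xist, without the highest doublet scores and without shared barcodes) both null libraries stayed above both WT libraries, with ratios from 1.27 to 1.57 and the same p of 0.333. With 2 libraries per genotype this permutation test cannot pass at 0.05 whatever the shares.

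The pairing of the transcripts was described as well. With thinned cells, at least 1 Zfhx3 UMI was found in 22.2% of the other neurons and 40.0% of microglia, so Zfhx3 transcripts were not limited to neurons, while Calb1 was found in 7.18% of the other neurons and in none of 70 microglia. In neurons with 2 or more Calb1 UMIs, Zfhx3 also reached 2 UMIs in 35.5%, 33.0%, 30% and 28.5% of cells, and in the remaining neurons in 22.3%, 25.8%, 17.8% and 17.4%. The odds ratios were 1.92, 1.42, 1.98 and 1.89, and 1.23, 1.12, 1.83 and 1.47 with thinned cells. The share of neurons with 2 or more Zfhx3 UMIs was itself higher in both null libraries, with a ratio of means of 1.35, and of 1.45 with thinned cells. For 2 or more Calb1 UMIs these ratios were 1.25 and 1.13. At these depths a cell with 0 or 1 UMI may still express the gene.

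Within the class, few genes passed the test between the libraries labelled null and WT, and genes that did not pass were not shown to be equal. Of 6654 genes tested, 3 (0.0451%) passed, all higher in null, and they were Xist, Tsix and Ebf1. Xist was at 505, 1253, 0 and 0 CPM, at least 148-fold higher in null against a floor of 3 UMIs over the WT libraries, and Tsix, which overlaps it on the other strand, at least 12.2-fold higher. Leaving out 1 library at a time gave 19 genes without null replicate 1, 12 without null replicate 2, 18 without WT replicate 1 and 4 without WT replicate 2. limma-voom called 2 genes higher and 1 lower and did not call Tsix (adjusted p = 0.145), and DESeq2 called 1 in each direction. Xist follows the sex of the pooled embryos. UMIs of the Y-linked Eif2s3y were found in all 4 libraries (39, 17, 25 and 12), and 51 and 14 of the null cells had no Xist UMI. The null libraries thus carried transcripts of both sexes, and the WT libraries showed no Xist in the class. Of all neurons, 2448 of 3988, 695 of 2411, 2640 of 2641 and 2718 of 2720 had no Xist UMI. Xist thus went with the genotype of the libraries, so sex and genotype cannot be told apart where all cells are compared. In the cells without Xist no gene passed by genotype in edgeR, with 219 at an unadjusted p under 0.05.

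Ebf1 was at 234, 224, 80.8 and 47.3 CPM, with both null libraries above both WT libraries, which its naming required (log2 fold change of null over WT 1.75, SE 0.30, adjusted p = 0.0142 by edgeR). Ebf1 UMIs were found in 10, 8, 2 and 3 Calb1+ Zfhx3+ neurons, and 1 cell in each library held 51, 106, 17 and 8 of them. Without that cell in each library the log2 fold change was 2.76 and the adjusted p 0.0510 by edgeR, and in DESeq2 they were 1.75 and 0.0812. limma-voom kept the call (1.77, adjusted p = 0.0356). With thinned cells the log2 fold change was 2.65 and did not pass (adjusted p = 0.232 by edgeR), and the call was also lost without WT replicate 2 (1.39), without a filter on low counts (1.83), without the highest doublet scores (1.27) and in cells without Xist (1.53). Without WT replicate 1 it was at 2.25.

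Six3 did not pass between genotypes (243, 188, 445 and 339.9 CPM, log2 fold change −0.93, adjusted p = 0.375 by edgeR), with both WT libraries above both null libraries. The same held for Id4, an inhibitor of helix-loop-helix factors (chromosome 13, 48261228 to 48266026, plus strand), at 272, 245, 551 and 443 CPM (−1.01, adjusted p = 0.229 by edgeR). Both genes were named through the interaction below. That naming required ratios of class to other neurons that did not overlap between genotypes, so this order is not a separate result. Peg10 (−0.14, SE 0.23), Tmem130 (0.74, SE 0.38, from 0.10 without WT replicate 1 to 1.75 without WT replicate 2) and St18 (−1.44, SE 0.71) did not pass either. Of 13 genes taken from the study's text and tested here, among them Maf, Zeb2, Mef2c, Myt1 and Myt1l, none passed in edgeR, DESeq2 or limma-voom. Of these 13, 2, 1 and 3 had an unadjusted p under 0.05, against 456, 92 and 396 of all 6654 genes.

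Whether the genotype difference of the class departed from that of the other neurons was tested as an interaction over all 8 sums. Of 12616 genes, 10 (0.0793%) passed in edgeR, 6 of them with a higher null-over-WT ratio in the class. limma-voom called none of them, with 774 genes at an unadjusted p under 0.05. The split depended on scaling, with 6 higher and 4 lower by TMM, 2 and 5 by DESeq2's size factors and 1 and 2 by library totals alone, while the median interaction of all genes moved from 0.13 to 0.04 and −0.02.

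Among these 10, Six3 was at 81.7 CPM in null and 64.9 in WT in the other neurons, while in the class it was at 216 in null and 392 in WT (interaction −1.05, SE 0.19, adjusted p = 0.000115 by edgeR). Id4 was at 119 and 107 CPM in the other neurons and at 258 and 497 in the class (−0.94, SE 0.18, adjusted p = 0.000504 by edgeR). For Ebf1 the other neurons of null and WT overlapped, at 248, 287, 283 and 167 CPM, and the interaction was 1.73 (SE 0.27). Gadd45g (2.75), Sox6 (1.25) and Ube2c (0.95) also passed in edgeR, and none of the 6 had an adjusted p under 0.54 in limma-voom. DESeq2 kept the interaction of Ebf1 (1.65, adjusted p = 0.0305). Ebf1 also passed whichever library was left out (1.54 to 1.83) and without the cell with the most Ebf1 in each library (2.73), and lost the call without the highest doublet scores (1.21, adjusted p = 0.289 by edgeR). Six3 (−0.93 and −0.85) and Id4 (−0.81 and −0.80) lost the call without null replicate 2 and without WT replicate 1, and so did Sox6 (0.71 and 0.74), which was at 1.95 without WT replicate 2. Gadd45g (2.17 to 3.33) and Ube2c (0.63 without null replicate 1 to 1.13) lost it whichever library was left out. With the rule applied to thinned cells Ebf1 was at 2.24 and passed (adjusted p = 0.0274 by edgeR), while Id4 (0.47) and Sox6 (−0.78) changed sign and the others did not pass. The remaining 4 genes, named after their values were seen to complete the count, were Snhg11, Reln, Hba-a1 and Gm17750.

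**Figure D5:**
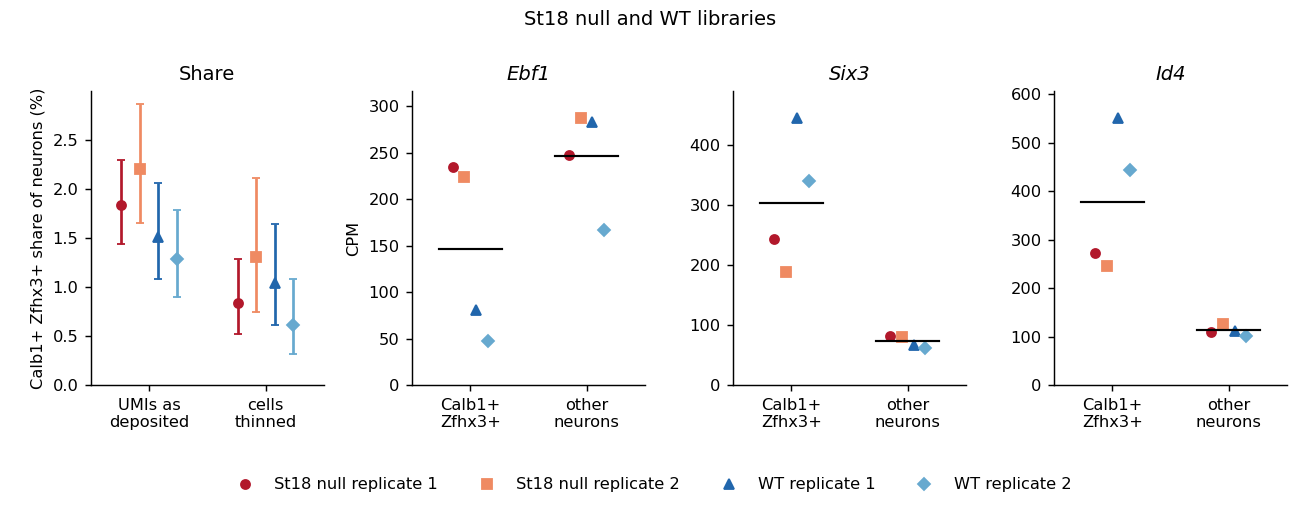
Left, share of Calb1+ Zfhx3+ neurons among neurons in % for each library, with exact 95% intervals, for UMIs as deposited and for cells thinned to 3000 UMIs; right, level of Ebf1, Six3 and Id4 in CPM in the class and in the other neurons, with 1 point for each library and a bar at the mean of the 4. The null libraries lie above the WT libraries in share with all UMIs and overlap with them after thinning. In the class Ebf1 lies higher and Six3 and Id4, which did not pass the test within the class, lie lower in null. Naming by genotype required that the genotypes did not overlap.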

How the data were processed

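Single-cell RNA-seq of MGE had been made from 2 St18(-/-) and 2 WT pools of e14.5 embryos. As deposited by the authors, each library is a matrix of raw UMI counts over genes and all barcodes, with no normalization and no selection of cells. The submitters' processing notes name Cell Ranger 5.0.1 and GRCm38, while the file headers name an earlier Cell Ranger, and the strand of counting is not given in the sources used here. Positions are from the GENCODE M21 annotation of GRCm38, in which 99.6% of gene identifiers were found. Replicates were numbered in accession order and do not pair libraries.

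The libraries held 70991150 to 92984713 UMIs, of which the sums over the Calb1+ Zfhx3+ neurons took 232404 to 669522. UMIs were summed per library and class and tested with edgeR 4.0.16 (TMM, filterByExpr, quasi-likelihood F-test, two-sided, Benjamini-Hochberg over all genes tested, adjusted p of 0.05), with library as a block between classes and none between genotypes. limma 3.58.1 (voom) and DESeq2 1.42.0 were alternatives, beside other scalings, filters, stricter or thinned cell choice and leaving out each library. The prior degrees of freedom of edgeR were infinite in the comparison with the other neurons and in the interaction. Scripts were tested on simulated data in R 4.3.3 and Python 3.11.15. Doublet scores were from Scrublet in scanpy 1.11.5.

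Named genes are the markers, up to 15 genes per direction against the other neurons (mean of at least 50 CPM, same direction in 4 libraries), up to 8 against each single-positive class and by Lhx6, up to 10 by genotype (at least 20 CPM, genotypes not overlapping), and members of gene lists. The class, its markers and the lists were chosen with earlier results of these data known.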

Additional observations from a re-analysis of the deposited data

Results flagged for a closer look

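The difference between null and WT libraries departed from that of the other neurons in 6 named genes, by edgeR's interaction of genotype and class. It was 2.75 on the log2 scale for Gadd45g, a stress-induced gene that had 57.1, 23.9, 7.35 and 4.30 CPM in the Calb1+ Zfhx3+ neurons and 80.4, 60.8, 61.2 and 66.6 in the other neurons. In the class 3 UMIs are 11.02 and 12.9 CPM in the WT libraries, so each of these WT levels of Gadd45g rested on fewer than 3 UMIs. The interaction was 1.73 for Ebf1, 1.25 for Sox6 and 0.95 for Ube2c, a ubiquitin-conjugating enzyme of mitosis. It was −1.05 for Six3 and −0.94 for Id4, whose difference within the class alone did not pass. limma-voom gave none of the 6 an adjusted p under 0.54, and DESeq2 kept that of Ebf1 (1.65, adjusted p = 0.0305). The null libraries were also deeper, with a median of 7178 and 10630 UMIs per Calb1+ Zfhx3+ neuron against 6460 and 5970 in WT. With the rule applied to cells thinned to 3000 UMIs, the interaction was 2.24 for Ebf1, which passed, 1.16 for Ube2c, 0.65 for Gadd45g and −0.73 for Six3, which did not, and it changed sign for Sox6 (−0.78) and Id4 (0.47). Without the highest doublet scores Ebf1 was at 1.21 and did not pass, and without the cell with the most Ebf1 in each library it was at 2.73 and passed.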

How the results depend on the processing

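Alternatives were fixed with earlier results of these data known, and library totals alone, limma-voom and leaving out the cell with the most Ebf1 were added after seeing the data. Of 165 called values of named genes, 113 kept direction and call under every alternative tried and 51 lost the call under at least 1, and 1 more, Six3os1, lost it with a change of sign; calls were lost most often with thinned cells (27), limma-voom (23) and DESeq2 (20). Genes passing against the other neurons (1467) were 814 by DESeq2, 733 by limma-voom, 476 with thinned cells and 950 to 1321 without 1 library. Against Calb1 single-positive neurons (557) they were 234 by DESeq2, 328 with at least 3 UMIs of each gene, 119 with thinned cells, 281 with comparison cells drawn to the same UMI distribution, and 341 to 534 without 1 library. Against Zfhx3 single-positive neurons (598) they were 211, 398, 174 and 251 in that order, and 272 without null replicate 2 to 777 without WT replicate 1. By Lhx6 (10) they were 34 without a filter on low counts, 4 without the highest doublet scores and 3 to 13 without 1 library. Between genotypes (3) they were 0 without a filter and in cells without Xist, with 539 and 219 genes at an unadjusted p under 0.05 by edgeR, and 4 to 19 without 1 library. For the interaction (10) they were 3 by library totals, 6 without a filter, 1 by DESeq2, 0 by limma-voom (774 at an unadjusted p under 0.05), 1 with thinned cells, 2 without the highest doublet scores, 6 in cells without Xist, and 1 without null replicate 2 to 23 without WT replicate 1. Log2 values that changed sign with thinned cells were, against the other neurons, Six3os1 (−0.015), Isl1 (−0.19), Foxp2 (−0.91) and Meis2 (−0.76). Against Calb1 single-positive neurons they were Npy (0.097) and Nkx2-1 (0.19), between genotypes Id4 (0.32) and Peg10 (0.57), and in the interaction Id4 (0.47) and Sox6 (−0.78). Without null replicate 1, Peg10 between genotypes was at 0.11, within a range of −0.38 to 0.11 over the libraries left out. Lhx6, never called against the other neurons, was at −0.045 without a filter, −0.032 with 3 UMIs of each gene, −0.096 in cells with an Lhx6 UMI and −0.080 to 0.059 without 1 library. Ebf1 against the other neurons was at 1.08 in cells with an Lhx6 UMI. The causes were not tested. With 2 libraries per genotype, the precision of every comparison of null with WT is limited. No paired analysis was possible because the replicate numbers carry no pairing.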

Other observations

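Lists not yet described were compared with the other neurons, where 5.44% of all genes were higher and 6.19% lower. Of 10 neuropeptide genes tested, 4 were higher and 2 lower in edgeR (1 and 2 by limma-voom). Tac1 and Nxph1 were the lower ones. Nts, the neurotensin precursor, was detected in 5 Calb1+ Zfhx3+ neurons, of which 1 cell of null replicate 1 held 51 UMIs and 1 cell of WT replicate 2 held 47. Of 5 immediate early and heat shock genes tested, Jun was lower in edgeR alone, and Junb was higher in limma-voom alone. Of the 14 genes of the study's text, 2 were higher and 9 lower in edgeR, and none was higher and 8 were lower by limma-voom.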
